A study of Sus scrofa with 2 samples.

Results

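The 9 genes described here store, release and move glycogen glucose in muscle, and they were taken by symbol from the 31780 genes of the feature list. They are the phosphorylase PYGM, the phosphorylase kinase subunits PHKA1, PHKB and PHKG1, the phosphoglucomutase PGM1, the carrier SLC37A4, the synthase GYS1, and the glycogen-targeting subunits PPP1R3A and PPP1R3C. All 9 held UMIs (unique molecular identifiers, which mark single captured molecules) in both sections, from 135 and 206 UMIs for SLC37A4 to 14274 and 23333 UMIs for PYGM, and all 9 passed the filter on low counts in every comparison.

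Glycogen is a branched polymer of glucose that muscle fibres keep as a local fuel. Phosphorylase cuts glucose 1-phosphate from its chain ends after phosphorylase kinase has switched it on, and phosphoglucomutase turns that product into glucose 6-phosphate, which enters glycolysis. Synthase builds the chains from UDP-glucose, and protein phosphatase 1, held on the particle by targeting subunits, turns synthase on and phosphorylase off. Fast fibres are known for rapid glycogen use during short bouts of force, and slow fibres for oxidative work.

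The study measured psoas major, a muscle of the loin, from female Landrace pigs without a stated treatment. The labels give 2 pigs and 1 group, with 1 cryosection of 15 µm per library, called section 1 and section 2, on 2 areas of the same Visium slide. A Visium spot captures polyadenylated RNA from a small patch that can hold parts of several fibres and the tissue between them. Classes of spot were therefore compared inside each section, and the 2 sections give n = 2.

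After filtering, section 1 kept 2429 spots with 3600270 UMIs and section 2 kept 2878 spots with 5371312 UMIs. Of these, 1849 and 2436 held at least 5 UMIs of the myosin heavy chains MYH7, MYH2 and MYH4, which mark slow type I, fast type IIA and fast type IIB fibres. Spots with a MYH7 share of these UMIs of 0.75 or more were called MYH7-dominant (731 and 821 spots), those at 0.5 or less MYH2/MYH4-dominant (897 and 1324), and those between mixed (221 and 291). MYH2/MYH4-dominant spots were split by how much of their MYH2 and MYH4 UMIs came from MYH4 into MYH4-poor spots with no MYH4 UMI, MYH4-middle spots, and MYH4-rich spots from the upper tertile of the section (0.214 and 0.2). The 2 fast myosins are closely related neighbours whose reads may be shared, and MYH1, which marks type IIX fibres, was not found by symbol and was not analysed here. The skeletal muscle markers (6 of 8 listed genes were in the files, all with UMIs) summed to between 125800 and 157000 CPM over the 10 class sums, where CPM scales UMIs to a common class total. The sections share 2104 spot barcodes, which come from the common barcode list of such slides.

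The members lie on several chromosomes of Sscrofa11.1, in the RefSeq annotation. PYGM (ENSSSCG00000013022) spans 7409330 to 7421256 of chromosome 2 on the plus strand. PPP1R3A (ENSSSCG00000016640) spans 31997667 to 32039949 of chromosome 18, also on the plus strand. PPP1R3C (ENSSSCG00000010464) spans 103273401 to 103278757 of chromosome 14, and SLC37A4 (ENSSSCG00000015105) spans 46247278 to 46254068 of chromosome 9, both on the minus strand. PGM1 (148851183 to 148918891), PHKB (36994424 to 37193631) and GYS1 (54234600 to 54250211) lie on chromosome 6, PHKG1 (16822042 to 16831054) on chromosome 3 and PHKA1 (58456097 to 58583216) on chromosome X. The other-strand gene SUMF2 overlaps PHKG1 and LOC110261018 overlaps GYS1, and no source used here gives the strand setting of the counting, so counts of these members are less certain.

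The 250 bases before the annotated start are shown for 4 members that the comparisons below turn on: PYGM and SLC37A4, which were lower in MYH7-dominant spots, and the targeting subunits PPP1R3A and PPP1R3C, which went opposite ways. They are written in the direction of the gene, with E-box letters (CANNTG, a pattern that is its own reverse complement) in capitals. They were read from the plus strand for PYGM (chr2:7409080-7409329) and PPP1R3A (chr18:31997417-31997666) and from the minus strand for PPP1R3C (chr14:103278758-103279007) and SLC37A4 (chr9:46254069-46254318).
PYGM: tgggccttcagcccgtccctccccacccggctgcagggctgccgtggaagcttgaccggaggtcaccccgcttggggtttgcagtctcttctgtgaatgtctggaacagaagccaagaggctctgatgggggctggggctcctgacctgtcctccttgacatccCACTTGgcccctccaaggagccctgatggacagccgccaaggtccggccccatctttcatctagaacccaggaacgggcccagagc
SLC37A4: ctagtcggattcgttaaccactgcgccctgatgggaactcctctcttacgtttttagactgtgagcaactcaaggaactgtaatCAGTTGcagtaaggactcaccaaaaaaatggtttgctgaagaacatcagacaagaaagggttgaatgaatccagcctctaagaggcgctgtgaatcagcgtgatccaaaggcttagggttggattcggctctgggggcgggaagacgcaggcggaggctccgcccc
PPP1R3A: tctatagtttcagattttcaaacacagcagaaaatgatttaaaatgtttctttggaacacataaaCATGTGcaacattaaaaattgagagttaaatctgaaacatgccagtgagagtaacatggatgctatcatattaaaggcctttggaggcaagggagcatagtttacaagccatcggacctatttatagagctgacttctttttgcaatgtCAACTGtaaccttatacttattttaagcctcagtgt
PPP1R3C: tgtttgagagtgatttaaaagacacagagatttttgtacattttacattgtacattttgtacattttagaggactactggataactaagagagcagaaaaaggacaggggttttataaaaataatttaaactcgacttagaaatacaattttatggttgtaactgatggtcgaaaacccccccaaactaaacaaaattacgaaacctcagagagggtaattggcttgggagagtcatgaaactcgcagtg
E-box letters occurred 1 time before PYGM, 1 time before SLC37A4, 2 times before PPP1R3A and not in the window of PPP1R3C. They stood in 61.9% of the 19556 windows of the same length before protein-coding genes, so holding them sets no member apart. Letters of the MEF2 motif, searched on both strands, stood in 2.55% of these windows and before PPP1R3A and PHKA1 among the 9 members. GC content was 63.6% before PYGM, 51.2% before SLC37A4, 34.4% before PPP1R3A and 34.8% before PPP1R3C.

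Breakdown genes took a smaller share of the RNA of MYH7-dominant spots than of MYH2/MYH4-dominant spots. All 4 breakdown members fell in share, where 14.4% of the 4216 genes tested were called lower. The members were chosen with earlier results of these data known, so this count is not independent of those results. Their median log2 fold change was -1.24, which became 0.25 when sums were scaled by the number of spots. PYGM, the muscle isoform of glycogen phosphorylase, had 2976 and 3239 CPM in MYH7-dominant spots of sections 1 and 2, and 5713 and 5918 CPM in MYH2/MYH4-dominant spots. The sections lay close together in both classes, and the classes did not overlap. The mean was 3108 ± 186 against 5816 ± 145 CPM (SD, n = 2), a log2 fold change of -0.90 (SE 0.04, edgeR adjusted p = 7.02e-62).

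The kinase that activates phosphorylase followed it. PHKA1, its muscle alpha subunit, had 57.2 and 77.6 CPM in MYH7-dominant and 163 and 181 CPM in MYH2/MYH4-dominant spots (log2 fold change -1.34, SE 0.12, edgeR adjusted p = 1.52e-22). PHKB, its beta subunit, had 88.1 and 114 CPM against 203 and 237 CPM (-1.13, SE 0.11, edgeR adjusted p = 2.98e-21). PHKG1, its muscle catalytic subunit, had 46.4 and 44.2 CPM against 138 and 123 CPM (-1.52, SE 0.15, edgeR adjusted p = 1.69e-20). For each subunit both sections of MYH7-dominant spots lay below all 8 other class sums of the fit, mixed spots included. The 95% intervals of the log2 fold change were -1.59 to -1.10 for PHKA1, -1.34 to -0.92 for PHKB and -1.81 to -1.23 for PHKG1. Each interval overlapped both others.

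The enzyme and the carrier that handle glucose 6-phosphate had the lowest fold changes of the 9 members. PGM1 had 179 and 199 CPM in MYH7-dominant, 343 and 466 CPM in mixed and 715 and 717 CPM in MYH2/MYH4-dominant spots. Its level was 3.77-fold lower in MYH7-dominant spots (log2 fold change -1.91, SE 0.08, edgeR adjusted p = 6.76e-78), with mixed spots between. SLC37A4, known as the carrier of glucose 6-phosphate into the endoplasmic reticulum, had 19.2 and 16.2 CPM, 47.9 and 56.5 CPM, and 74.5 and 62.9 CPM in the same order. It was 3.81-fold lower (-1.93, SE 0.21, edgeR adjusted p = 1.01e-16) on the fewest counts of the 9 members. The intervals of PGM1 (-2.07 to -1.76) and PYGM (-0.99 to -0.82) did not overlap.

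Synthesis and targeting genes did not move one way: 1 of 3 rose, 1 fell and 1 did not pass the test, where 15.9% of all genes tested were called higher. GYS1, the muscle glycogen synthase, had 106 and 124 CPM in MYH7-dominant and 110 and 105 CPM in MYH2/MYH4-dominant spots. The classes overlapped, at 115 ± 12.7 and 108 ± 3.25 CPM (SD, n = 2), and the log2 fold change was 0.12 with a 95% interval of -0.13 to 0.36 (edgeR adjusted p = 0.536). PPP1R3A, the large muscle subunit that ties phosphatase 1 to glycogen and the sarcoplasmic reticulum, had 158 and 167 CPM against 344 and 293 CPM. It fell by 0.94 on the log2 scale (SE 0.09, edgeR adjusted p = 8.36e-21), close to PYGM. PPP1R3C, a smaller targeting subunit also called PTG, had 178 and 197 CPM against 122 and 134 CPM. It rose by 0.56 (SE 0.11, edgeR adjusted p = 3.54e-06), the single member called higher, and its sections did not overlap between the classes.

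**Figure D1:**
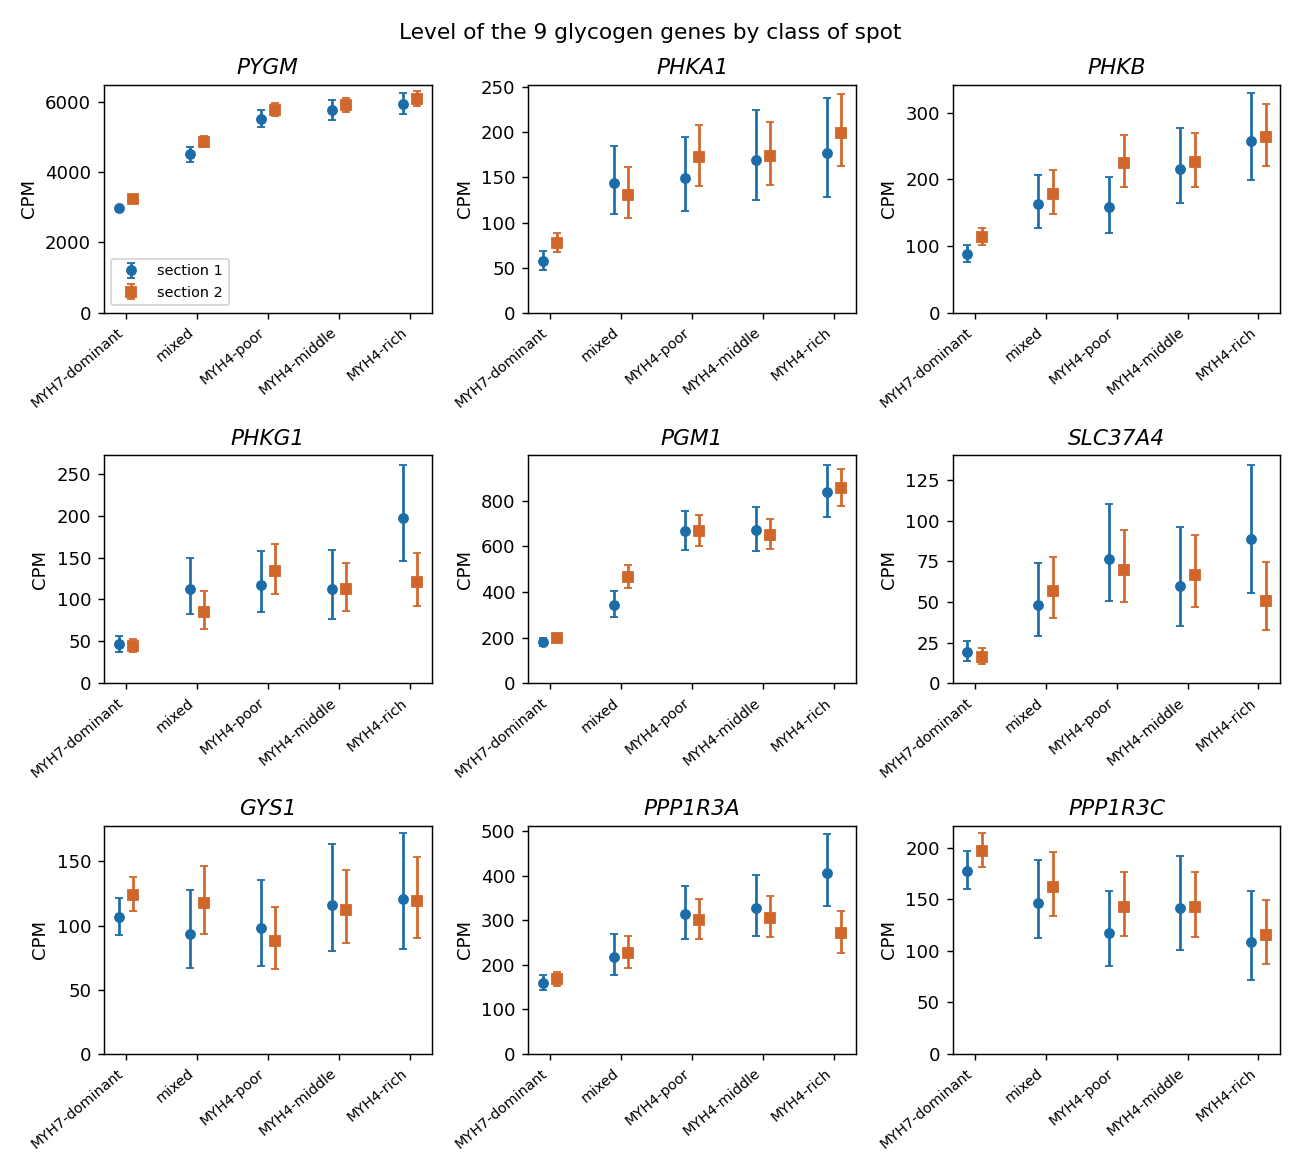
CPM of each member (y axis, from 0) in 5 classes of spot (x axis), 1 point per section with an exact 95% Poisson interval for counting error only. MYH7-dominant spots were lowest in both sections for 7 members, highest for PPP1R3C (178 and 197 CPM), and within the range of the other classes for GYS1 in section 1.

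These directions are of shares of RNA, and they depend on the scaling. MYH7-dominant spots held a median of 2961 and 3598 UMIs, against 599.5 to 1549 in the 3 MYH2/MYH4-dominant classes, so scaling by the number of spots moved the median of all genes tested from -0.01 to 1.47. On that scale 3938 of the 4216 genes tested were called higher and 29 lower, so being called higher sets no member apart. PYGM (0.58), PHKB (0.36) and PPP1R3A (0.54) were among those called higher in MYH7-dominant spots. PHKA1 (0.14) and PHKG1 (-0.04) were not called, and PGM1 (-0.43) and SLC37A4 (-0.45) were still called lower. GYS1 (1.60) and PPP1R3C (2.04) were higher, and these 2 alone lay above the median of all genes, as they did on the share scale. Per 100 spots PYGM had 1006 ± 194 UMIs in MYH7-dominant and 660 ± 123 UMIs in MYH2/MYH4-dominant spots, and PPP1R3C had 60.7 ± 12.5 and 14.6 ± 3.30 (SD, n = 2). Fewer fibres of a type in a spot and less RNA per fibre cannot be told apart in these sums.

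**Figure D2:**
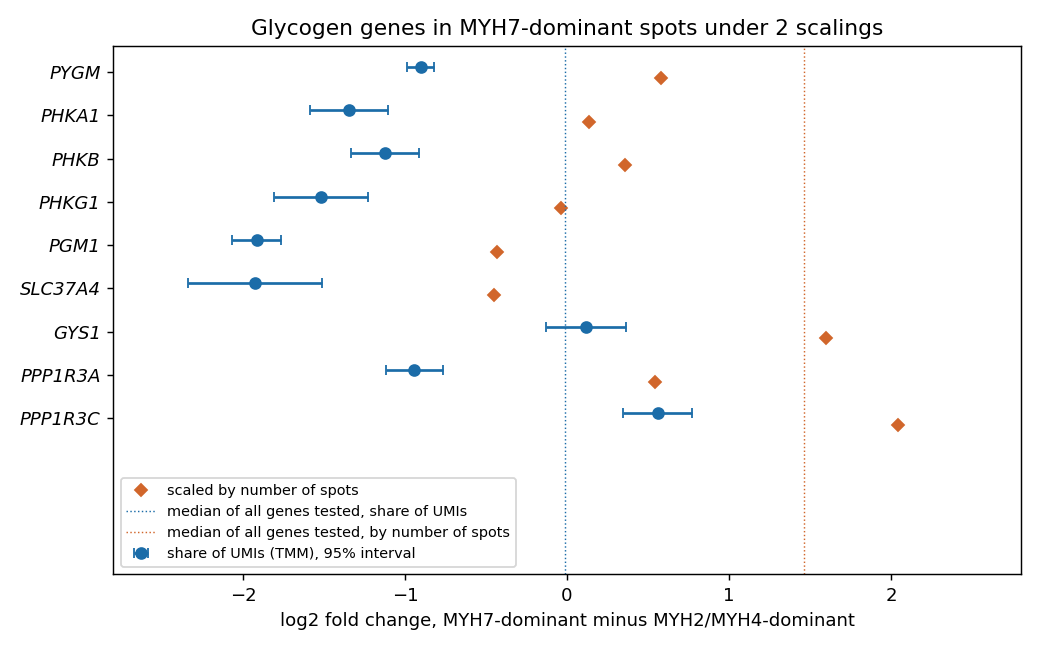
Log2 fold change of MYH7-dominant minus MYH2/MYH4-dominant spots (x axis) for each member (y axis), as a share of UMIs with its 95% interval (circles) and scaled by the number of spots (diamonds). Dotted lines mark the median of all genes tested, at -0.01 and 1.47; 7 members lie left of both lines and GYS1 and PPP1R3C right of both.

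Other properties of the spots moved with the classes. The share of mitochondrially encoded UMIs was 19.5% and 18.9% in MYH7-dominant and 10.2% to 13.2% in MYH2/MYH4-dominant classes. The 12 fibroblast and matrix markers, all with UMIs, summed to 865 and 874 CPM in MYH7-dominant and 1931 and 1602 CPM in MYH2/MYH4-dominant spots, and the 7 macrophage markers to 98.4 and 90.4 against 231 and 199 CPM. Without spots rich in markers of other cell types, the log2 fold changes were -0.98 for PYGM, -2.02 for PGM1, -1.02 for PPP1R3A and 0.47 for PPP1R3C, with the same calls. Among spots of interquartile depth the 7 lower members were still called, PYGM at -0.75 and SLC37A4 at -1.21, but PPP1R3C lost its call (0.33, edgeR adjusted p = 0.184).

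The ratio between members of 1 spot class does not depend on how the class is scaled. PPP1R3C made up 52.9% of the UMIs of both targeting subunits in MYH7-dominant spots of section 1 (exact 95% binomial interval 49.1 to 56.6, 717 UMIs) and 26.3% in MYH2/MYH4-dominant spots (22.1 to 30.7, 419 UMIs). In section 2 it made up 54.1% (51.0 to 57.1) and 31.4% (28.0 to 35.0). The intervals, which cover counting error only, did not overlap between the classes in either section. Kinase subunits made up 64.3% and 65.5% of the UMIs of kinase subunits and GYS1 in MYH7-dominant spots, and 82.1% and 83.7% in MYH2/MYH4-dominant spots. The 4 breakdown members together made up 87.8% (87.0 to 88.5) and 87.7% (87.1 to 88.3) of the UMIs of breakdown, synthesis and targeting members in MYH7-dominant spots, and 91.5% (90.8 to 92.2) and 92.4% (91.9 to 92.9) in MYH2/MYH4-dominant spots. This sum is mostly PYGM, and GYS1 made up 3.45% and 3.69% of the UMIs of GYS1 and PYGM in MYH7-dominant against 1.89% and 1.75% in MYH2/MYH4-dominant spots.

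Bins of the MYH7 share asked whether the members changed in steps. The 6 bins per section ran from 0 to 0.1, 0.25, 0.5, 0.75, 0.9 and 1, and they hold the same spots as the classes, so they are not independent of them. From the lowest to the highest bin PYGM had 5855, 6048, 5513, 4610, 3424 and 2764 CPM in section 1 and 5865, 6229, 5799, 4900, 3607 and 2960 CPM in section 2. The level stayed between 5513 and 6229 CPM over the first 3 bins and was lower in each of the next 3. PGM1 had 843, 856, 616, 381, 235 and 152 CPM in section 1 and 996, 779, 638, 486, 242 and 167 CPM in section 2. In section 1 it was lower from the third bin on, and in section 2 already from the second. SLC37A4 had 88.7 and 68.7 CPM in the lowest bins and 14.5 and 12.1 CPM in the highest.

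PPP1R3C ran the other way, with 77.6, 147, 114, 149, 148 and 192 CPM in section 1 and 103, 146, 128, 164, 196 and 198 CPM in section 2. The lowest bin rests on 7 and 15 UMIs. PPP1R3A had 388, 333, 347, 220, 200 and 139 CPM in section 1 and 261, 311, 285, 234, 191 and 150 CPM in section 2. Both sections had their lowest level of PPP1R3A in the bin where PPP1R3C was highest. GYS1 lay between 91.2 and 119 CPM in section 1 and between 61.8 and 138 CPM in section 2, with no order by bin.

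The slope of the log2 level on the MYH7 share (per full unit of share) was negative for the same 7 members, where 15.2% of 4003 genes tested were called lower and 14.8% higher. It was -1.24 for PYGM (SE 0.10, edgeR adjusted p = 1.66e-11), -2.81 for PGM1 (SE 0.14, edgeR adjusted p = 5.07e-17) and -2.73 for SLC37A4 (SE 0.32, edgeR adjusted p = 3.34e-08). The kinase subunits had slopes of -2.04 (PHKA1), -1.77 (PHKB) and -2.22 (PHKG1), steeper than PYGM, and their 95% intervals did not overlap that of PYGM (-1.44 to -1.04). PPP1R3A had -1.40 (SE 0.14) and PPP1R3C 0.81 (SE 0.17, edgeR adjusted p = 4.15e-04), and GYS1 was not called (0.11, 95% interval -0.28 to 0.49). Scaled by spots, where the median slope of all genes was 2.37, PYGM (1.29), PHKA1 (0.455), PHKB (0.70), PHKG1 (0.27) and PPP1R3A (1.09) turned positive. Among spots of interquartile depth PPP1R3C again lost its call (0.57, edgeR adjusted p = 0.0645). Over all alternative settings, 3 calls of members in this slope were lost without a change of sign, this one included.

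**Figure D3:**
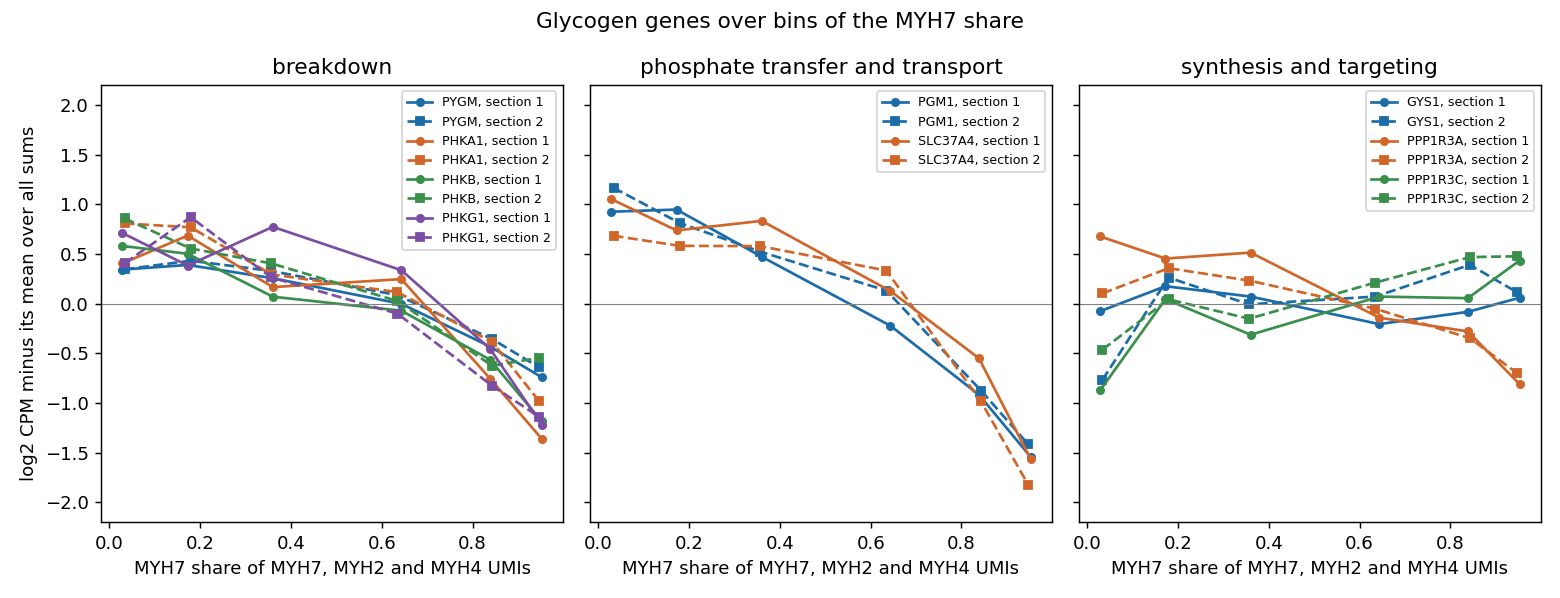
Log2 CPM of each member minus its mean over the 12 sums (y axis) against the pooled MYH7 share of the bin (x axis), 1 line per member and section. As shares of UMIs, breakdown members, PGM1, SLC37A4 and PPP1R3A fall towards the right, and GYS1 keeps no order. PPP1R3C rises from 77.6 and 103 CPM, on 7 and 15 UMIs, to 192 and 198 CPM, though not at every bin.

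In both sections the PPP1R3C share of PPP1R3A and PPP1R3C UMIs was higher in each bin above a MYH7 share of 0.5 than any below. It made up 16.7%, 30.6%, 24.8%, 40.4%, 42.4% and 58.0% of these UMIs over the bins of section 1, and 28.3%, 32.0%, 30.9%, 41.2%, 50.7% and 56.9% over those of section 2. In the 3 lower bins the intervals within a section overlapped, and in the highest bin they lay above all 3 of them. The kinase share of kinase and GYS1 UMIs lay between 78.0% and 91.3% in the 4 lower bins, and between 59.6% and 71.9% in the upper 2.

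**Figure D4:**
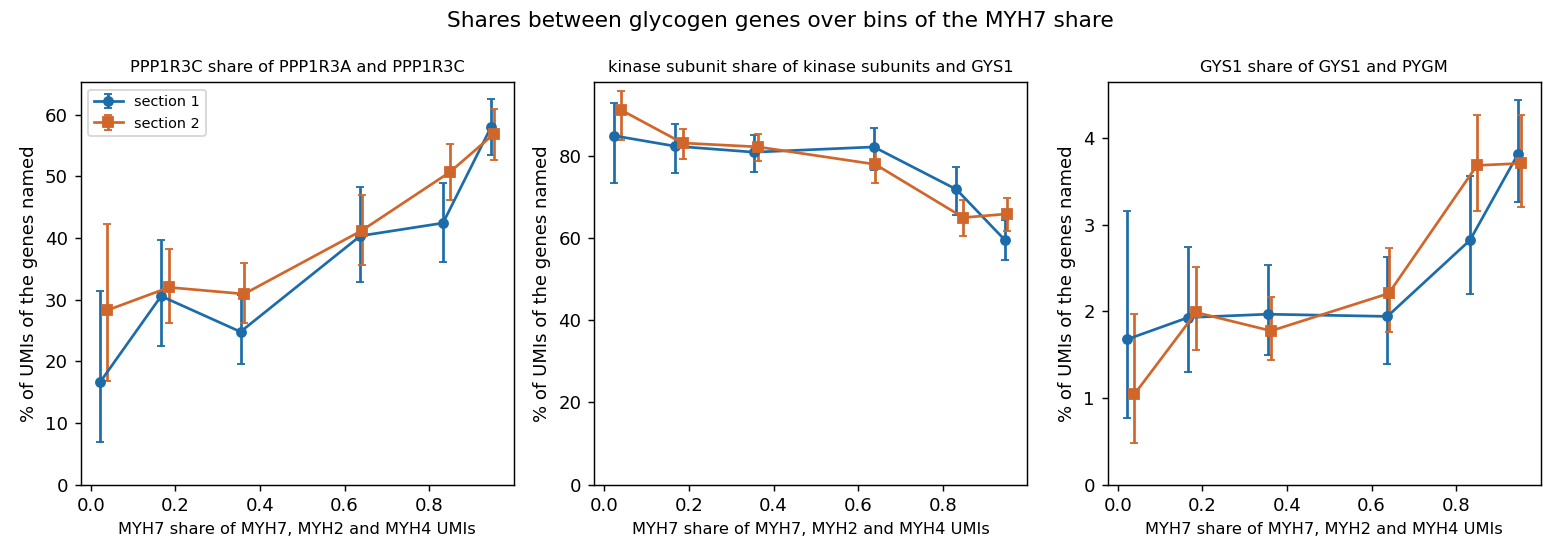
Share of UMIs (%, y axis from 0) of the genes named above each panel, against the pooled MYH7 share of the bin (x axis), with exact 95% binomial intervals, by section. The PPP1R3C share reaches 58.0% and 56.9% in the highest bin, where the kinase share has its lowest value in section 1 (59.6%) and GYS1 makes up 3.82% and 3.71% of GYS1 and PYGM.

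Among MYH2/MYH4-dominant spots few genes were called by the MYH4 share. Of the 9 members 1 was called, too few to compare with the share over all genes. In spots with few myosin UMIs this share rests on few counts, so counting error can mix these classes. MYH4-rich against MYH4-poor spots gave 1 member called by edgeR, PGM1, which was higher, where 1.19% of 4216 genes were called higher and 1.21% lower. PGM1 had 837 and 855 CPM in MYH4-rich and 667 and 667 CPM in MYH4-poor spots, a log2 fold change of 0.37 (SE 0.10, edgeR adjusted p = 0.0176), and the classes did not overlap. PYGM had 5949 and 6093 against 5515 and 5777 CPM, a difference of 0.12 with a 95% interval of 0.01 to 0.22 that did not pass after adjustment (edgeR adjusted p = 0.389). The intervals were 0.10 to 0.75 for PHKB (edgeR adjusted p = 0.216), -0.05 to 0.86 for GYS1 and -0.63 to 0.21 for PPP1R3C. PHKG1, PPP1R3A and SLC37A4 had opposite signs in the 2 sections.

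Over 4 bins of the MYH4 share (0 to 0.1, 0.2, 0.35 and 1) PGM1 had 649, 720, 722 and 917 CPM in section 1 and 646, 699, 798 and 865 CPM in section 2. The order was the same in both sections, and the slope of 0.89 per unit of MYH4 share (SE 0.22, edgeR adjusted p = 0.0124) was the single call among the 9 members, where 1.89% of 2114 genes were called higher and 2.22% lower. PYGM had a slope of 0.25 (95% interval 0.03 to 0.48, edgeR adjusted p = 0.266). The MYH7 share also fell over these bins, from 0.304 to 0.209 in section 1 and from 0.296 to 0.218 in section 2, and median UMIs from 1042 to 595 and from 1339.5 to 815. Within spots of a MYH7 share of 0.2 to 0.4, an alternative chosen after seeing the data, PGM1 was not called (class difference 0.27, edgeR adjusted p = 0.606; slope 0.73, adjusted p = 0.343). Its class call was also lost without the filter on low counts (edgeR adjusted p = 0.588), with at least 10 myosin UMIs (0.141), at interquartile depth (0.313), scaled by spots (0.6) and without the section block (0.0672), and the call of its slope was lost without the filter (0.535), with at least 10 myosin UMIs (0.124), at interquartile depth (0.132) and without the lowest (0.384) or highest bin (0.372). Scaled by spots the slope turned to -0.27.

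**Figure D5:**
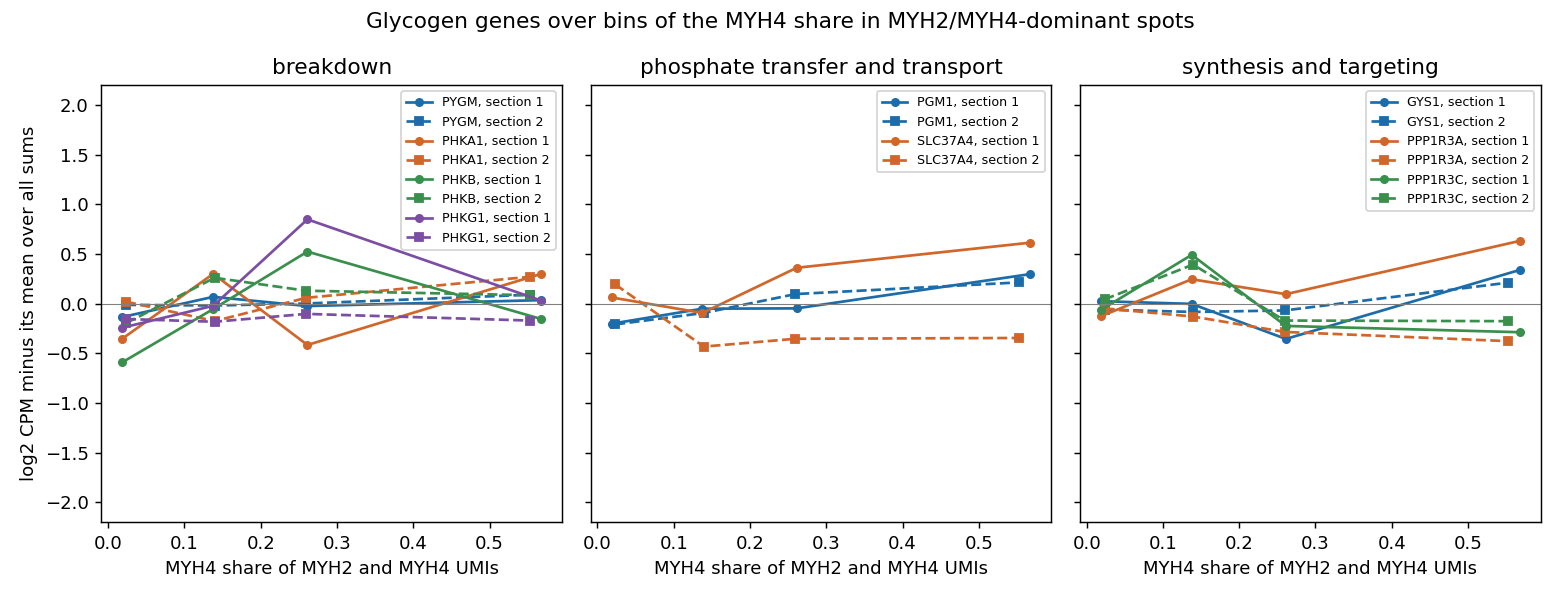
Log2 CPM of each member minus its mean over the 8 sums (y axis, same range as for the MYH7 bins) against the pooled MYH4 share of MYH2/MYH4-dominant spots (x axis). PGM1 rises from 649 and 646 CPM to 917 and 865 CPM; lines of the other members cross or differ between sections.

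Other genes of glycogen metabolism were read from a list of 55, of which 48 were in the files and 25 were tested in the class comparison. In MYH7-dominant spots 6 rose, 7 fell and 12 were not called, beside 15.9% of all genes tested that were called higher and 14.4% lower, with a median log2 fold change of -0.06, against -0.01 over all genes tested. CALM3, a calmodulin gene whose product is also a subunit of phosphorylase kinase, fell by 0.46 in share. GPI, which isomerises glucose 6-phosphate, fell from 848 ± 11.6 to 290 ± 41.3 CPM (-1.54). PGM2L1, which makes the glucose 1,6-bisphosphate that phosphoglucomutase needs, fell by 1.68. This value rests on 29 and 70 UMIs in all, with a 95% interval of -2.60 to -0.75.

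Among regulators of the phosphatase, PPP1R3B, the targeting subunit best known from liver, rose with PPP1R3C, from 225 ± 0.778 to 363 ± 4.53 CPM (SD over 2 sections), a log2 fold change of 0.70 (edgeR adjusted p = 5.85e-14). PPP1R1A, an inhibitor of phosphatase 1, fell from 3118 ± 114 to 1626 ± 47.4 CPM (-0.94). The catalytic subunit PPP1CB rose by 0.25 (edgeR adjusted p = 0.0391), and PPP1CC (0.27, adjusted p = 0.0776) and PPP1CA (0.00) were not called. The kinase subunits went both ways: PRKAG3, the gamma subunit of AMP-activated kinase known for its effect on pig muscle glycogen, fell (-1.16), while PRKAG1, another gamma subunit, rose (1.00), as did PRKACA, a catalytic subunit of protein kinase A (0.52). PRKACB, another such subunit, missed the threshold here (0.76, edgeR adjusted p = 0.0515) and passed it in the slope over MYH7-share bins (1.14, edgeR adjusted p = 0.0354), where PRKACA did not pass (0.76, edgeR adjusted p = 0.0506).

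Of the 10 listed genes of glucose entry and glucose phosphates 3 were tested, and of these GPI fell and 2 rose in share: the insulin-responsive transporter SLC2A4 from 166 ± 25.1 to 224 ± 21.0 CPM (log2 fold change 0.51) and hexokinase HK2 from 20.8 ± 1.1 to 59.6 ± 2.11 CPM (1.66, edgeR adjusted p = 2.61e-11). Of other synthesis genes, glycogenin GYG1 at 0.07 (220 ± 4.67 and 229 ± 1.49 CPM) and UDP-glucose maker UGP2 at 0.15 were not called. The branching enzyme GBE1, with 38 and 55 UMIs, was not tested. Scaled by spots, the median of these 25 genes was 1.42, against 1.47 over all genes tested. In MYH4-rich against MYH4-poor spots PPP1R1A rose (0.28, edgeR adjusted p = 0.00141).

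Over the 12 sums of MYH7-share bins, the genes whose log2 level most resembled that of PYGM, among 1212 genes with a mean of at least 50 CPM, were PGAM2 (Pearson r = 0.997), SLN (0.995) and GPI (0.994). For PGM1 they were GAPDH (0.996), ENO3 (0.994) and PDLIM7 (0.994), and for SLC37A4 they were TPI1 (0.983), TNNT3 (0.979) and FBP2 (0.979). PPP1R3C was most like NDUFA5 (0.951), KLHL24 (0.95) and ADCY2 (0.927). These values are descriptions, since all points share the bins, the sections and the fall or rise with the MYH7 share, and they differ in depth.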

How the data were processed

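RNA of 2 sections was measured with Visium. The authors deposited counts of UMIs for each gene in each spot, not normalized, which they made with Space Ranger 1.1 on Sscrofa11.1. As in part of the study's filtering, spots above 25% mitochondrially encoded UMIs and then the 2% with the fewest UMIs were removed, and haemoglobin genes, the 3 myosins and genes found in under 15 spots per section were left out of tests. Spots that the study also removed by hand were not known and were kept, so the spots here are more than its own. UMIs were summed per section and class (10 sums), MYH7 bin (12) or MYH4 bin (8), because single spots are no replicates. The sums went into edgeR 4.0.16 (R 4.3.3) with TMM, filterByExpr at a minimum count of 10, its quasi-likelihood test and the section as a block (the classes of a section come from 1 pig), and Benjamini-Hochberg adjustment over all genes tested, at 0.05. The class fit had 4 residual and 363.6 prior degrees of freedom, so its very small p-values rest on sharing between genes, and p-values measure only the spread between these sums. Depth per kept spot ran from 53 to 7431 UMIs (section 1) and from 89 to 9200 (section 2).

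The members and lists were chosen with earlier results of these data known. Named were all 9 members, other glycogen genes called in a comparison plus up to 4 with the smallest p, and the 3 genes most like each of 4 members. Alternatives were DESeq2 1.42.0, scaling by the number of spots, other filters and class limits, and each section alone. Upstream sequence and coordinates come from RefSeq on Sscrofa11.1. The fits were tested on simulated data. Spot positions were not used here. Some of the other glycogen genes that were called enter the counts but are not reported here by name.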

Additional observations from a re-analysis of the deposited data

How the results depend on the processing

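The 7 lower members and PPP1R3C kept their direction and call in the MYH7 comparisons under DESeq2, without the filter, without the section block, with at least 10 myosin UMIs, without marker-rich spots and with stricter class limits. Scaling by the number of spots turned PYGM (0.58), PHKA1 (0.14), PHKB (0.36) and PPP1R3A (0.54) in the class comparison, PYGM (1.29), PHKA1 (0.455), PHKB (0.70), PHKG1 (0.27) and PPP1R3A (1.09) in the MYH7 slope, and PYGM (-0.895) and PGM1 (-0.27) in the MYH4 slope. Members called on neither scale also changed sign: PHKA1 (-0.43), PHKB (-0.495), PHKG1 (-0.81), GYS1 (-0.63) and PPP1R3A (-0.81) in the MYH4 slope, and PYGM (-0.12) and PPP1R3A (-0.14) between MYH4 classes. This follows from the depth per spot: it moved the median of all genes to 1.47, 2.37, -0.24 (MYH4 classes) and -1.18 (MYH4 slope), with 3938 genes higher and 29 lower of 3967 called, 3859 and 3 of 3862, 6 and 199 of 205, and 0 and 836 of 836. The main counts were 1280, 1201, 101 and 87 genes in the same order.

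Genes called in the MYH7 class comparison were 629 with DESeq2 and 620 at interquartile depth, and in the MYH7 slope 558 at that depth and 758 without the highest bin. In the MYH4 classes they were 52 without the filter, and in the MYH4 slope 47 without it, 40 at interquartile depth and 15 without the lowest bin. Dropping the replicate block for section gave 1284 and 1191 genes in the MYH7 comparisons and 49 and 48 in the MYH4 ones. Within MYH7 shares of 0.2 to 0.4, chosen after seeing the data, 14 and 16 genes were called, on fewer spots, and SLC37A4 was too low to be tested in the slope. Other causes were not tested. With either section alone no spread between pigs remains, so only values were computed: the class difference was -0.90 and -0.89 for PYGM, 0.54 and 0.61 for PPP1R3C, and 0.21 and -0.004 for GYS1, without section 1 and without section 2. In the MYH4 slope without the highest bin PHKB was called (2.73), and PPP1R3C was called lower scaled by spots (-1.68). Counts of SLC37A4, 135 and 206 UMIs in all, limit its values within MYH2/MYH4-dominant spots.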

Other observations

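Spots with fewer than 5 myosin UMIs entered no comparison (580 in section 1 and 442 in section 2, with medians of 219 and 254.5 UMIs). Their summed level was 6066 and 6014 CPM for PYGM, 835 and 931 CPM for PGM1, 108 and 115 CPM for GYS1, and 175 and 122 CPM for PPP1R3C, the last on 26 and 16 UMIs. The few myosin UMIs they held had a pooled MYH7 share of 0.259 and 0.222. PPP1R3C made up 33.3% of the UMIs of PPP1R3A and PPP1R3C in each section (exact 95% binomial intervals 23.1 to 44.9 and 20.4 to 48.4).

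GYS2, PPP1R3G and G6PC2, of which GYS2 is the liver synthase, were listed in the files with 0 UMIs in every class of both sections, which allows up to 3 counts each. The other phosphorylase genes were scarce: PYGL, the liver form, had 15 and 24 UMIs and PYGB, the brain form, was at 0.937 ± 1.33 CPM in MYH7-dominant spots (SD, n = 2).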
